A study of Mus musculus with 4 samples.

Results

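The 10 genes described here were 4 fibroblast growth factor (FGF) ligands (Fgf7, Fgf9, Fgf10 and Fgf18), 3 FGF receptors (Fgfr1, Fgfr2 and Fgfr3) and 3 Sprouty genes (Spry1, Spry2 and Spry4), out of 32285 genes counted. They were taken by symbol, as a fixed list that was chosen with earlier results of these data known. The genes were followed through the cell populations of the external genitalia of male mouse embryos at E16.5, while the urethra closes. There were 4 single-cell libraries, 2 per genotype. DTA+ embryos carried Nr5a1-Cre Tg/+ and Rosa-LSL-DTA +/f, so that cells with a history of Nr5a1 expression made diphtheria toxin A and died. DTA- embryos, whose labels also call them WT, carried Rosa-LSL-DTA +/f without Cre, so the toxin allele was shared by both groups and the Cre was not. Nr5a1-Cre also acts in the testis and the adrenal gland, and an effect through those organs cannot be told apart from one of the cells lost in the penis. The labels do not say how many embryos went into a library or that the libraries came from separate litters, so the p-values below measure only the spread between these 4 samples.

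FGF ligands are secreted proteins that bind receptor tyrosine kinases on neighbouring cells together with heparan sulphate. The activated receptors drive the RAS and ERK cascade, which induces the ETS factors of the Etv family and also its own inhibitors, the Sprouty and Spred proteins. In the genital tubercle FGF10 is made by mesenchyme and signals to the epithelial form of FGFR2, and mice without either one fail to close the urethral plate.

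The libraries held 11343 to 12580 cells and 50779551 to 73577028 unique molecular identifiers (UMIs, each standing for 1 captured transcript). After cells with 1000 UMIs or fewer, or with 7500 or more, and cells rich in mitochondrial or haemoglobin transcripts were left out, 31132 of 47040 cells remained (6573 and 7874 in DTA-, 7875 and 8810 in DTA+). The upper limit removed unequal shares, 21.4% of the cells of DTA- replicate 1 against 9.98% to 11.2% of the others, and median depth was higher in the kept DTA- cells (4700 and 4077 UMIs) than in the DTA+ cells (3551 and 3560). Nr5a1 itself gave 0, 0 and 0 UMIs in DTA- 1, DTA- 2 and DTA+ 1 and 2 UMIs in DTA+ 2, so it does not check the labels. Of 27 clusters, 20 were named into 15 populations from marker lists, and 7 clusters with 10609 cells stayed unnamed and are called by number. The population names below stand for marker profiles, with 3 to 11 enriched markers per named cluster. The osteogenic mesenchyme joined cluster 8, enriched for Runx2, Sp7, Alpl, Dlx5 and Dlx6, and cluster 16. Of the same list cluster 16 was enriched only for Alpl, Dlx5 and Dlx6, and it was led by Hand2os1. The mast cell-like cluster also carried the neutrophil genes S100a8 and S100a9 and the neural-like one the melanocyte genes Dct and Pmel. A subdermal prepuce-like population held 291 and 872 cells in DTA- and 33 and 17 in DTA+, and a smooth muscle-like one 117 and 180 against 29 and 9. Cluster 13, led by Ccn3, held 87 and 9 cells against 286 and 648, and cluster 14, led by Iyd and Stmn2, 6 and 8 against 603 and 374. These 4 were not tested in this clustering, since a sample had fewer than 20 of their cells. Clusters formed without genes that differed by genotype included 1 of 2455 cells, with 277 and 816 in DTA- and 774 and 588 in DTA+. Its leading genes included Sema3c and Cthrc1 of the subdermal prepuce-like cells, Ccn3 of cluster 13 and Iyd and Vsnl1 of cluster 14. In it 5 smooth muscle markers were enriched. Loss or gain of cells and a change of their state were not told apart.

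Levels are given as UMIs of a gene per 1000000 UMIs of the population (CPM). They describe the control organ with no test, since the populations come from the same cells, and because only transcript ends were counted they are compared for 1 gene across populations and not between genes. The 4 ligands differed in the population with their highest mean in the DTA- samples, while some populations were high for more than 1 of them. Fgf7, a mesenchymal ligand for epithelial FGFR2, stood at 93.4 ± 19.0 CPM (SD, n = 2) in the smooth muscle-like cells, above every other population. Cluster 14 followed at 55.0 ± 15.6, from only 3 UMIs in 14 cells. Below these, cluster 0 (led by Sostdc1 and Wnt16, 20.7 ± 8.55), the subdermal prepuce-like cells (18.2 ± 1.98) and the corpus cavernosum (17.9 ± 0.83) lay within their spread of each other. No Fgf7 UMI was found in the 445 cells of the epithelium or the 499 of the endothelium, which allows shares of up to 0.674% and 0.601% of cells with a UMI. Such limits cover counting error only and do not bound the share of cells that express the gene.

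Fgf9, a ligand known for signalling from epithelium to mesenchyme in other organs, was here high in mesenchymal clusters. It reached 74.1 ± 2.64 CPM in cluster 5 (led by Coch, Meox2 and Wif1), 69.8 ± 7.94 in the distal glans and 63.4 ± 5.02 in cluster 9 (led by Dsc3, Wnt10a and Notum), and the gaps between these did not exceed the SDs. The epithelium held 4.69 and 0 CPM of Fgf9 in DTA- and 3.49 and 3.05 in DTA+. Fgf10, the other ligand of epithelial FGFR2, was highest in cluster 13 (86.2 ± 4.02), followed by cluster 6 (led by Thbd and Ptgis, 50.8 ± 1.07), cluster 17 (led by Kera and Nefl, 39.4 ± 8.89), cluster 5 (27.3 ± 0.32) and the subdermal prepuce-like cells (21.1 ± 0.59), and each of these steps was larger than both SDs. The cluster 13 value of DTA- 2 came from only 3 UMIs in 9 cells, so the SD there is a weak guide to its precision. In the distal glans and the osteogenic mesenchyme the Fgf10 level was low, with 8.81 and 9.50 CPM in the former and 6.07 and 5.92 in the latter. Fgf18, a ligand with known roles in cartilage and bone, was highest in cluster 9 at 62.7 ± 2.55, ahead of cluster 6 (24.2 ± 1.87) and cluster 17 (20.2 ± 5.15), which did not differ beyond their spread.

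**Figure D1:**
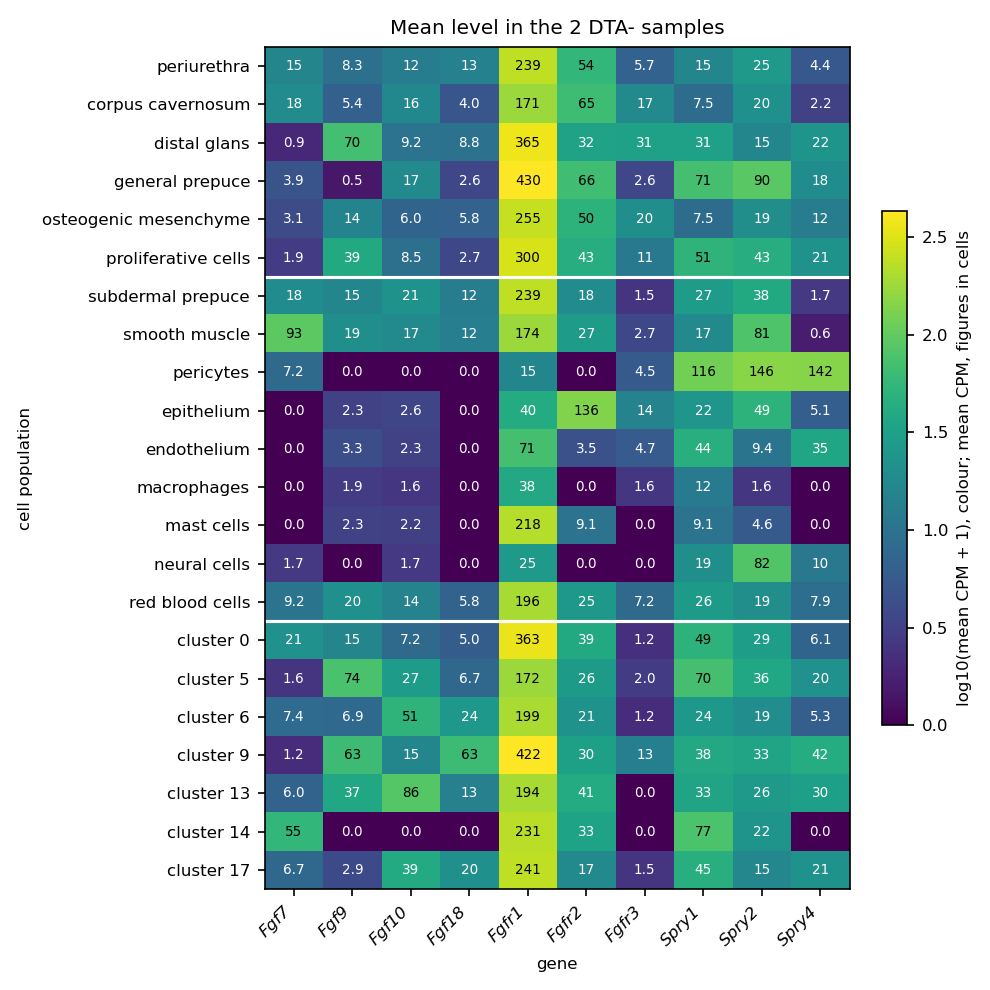
Mean level in the 2 DTA- samples for each of the 10 genes (columns) in each cell population (rows); the colour is log10(mean CPM + 1) and the number in a cell is the mean CPM. Brighter cells are higher. Fgf10 is brightest in cluster 13 at 86.2 (3 UMIs in 9 cells in DTA- 2), Fgfr2 in the epithelium at 136 and the 3 Sprouty genes in the pericytes at 116, 146 and 142.

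The receptors divided the organ differently. Fgfr1, the main receptor of mesenchyme, was present in all populations and highest in the general prepuce (430 ± 70.5 CPM) and cluster 9 (422 ± 4.37), which did not differ beyond their spread, followed by the distal glans (365 ± 13.2) and cluster 0 (363 ± 43.3). Its lowest levels were in pericytes (15.3 ± 8.73), neural cells (25.2 ± 12.7), macrophages (38.3 ± 0.82) and epithelium (40.4 ± 5.88). Fgfr2 had the opposite leader. Its level was 136 ± 23.0 in the epithelium, against 65.9 ± 2.49 in the general prepuce, 65.1 ± 5.08 in the corpus cavernosum and 54.4 ± 3.17 in the periurethra, and no Fgfr2 UMI was seen in DTA- macrophages, pericytes or neural cells. The counts do not separate the epithelial from the mesenchymal splice form. Fgfr3, known as a brake on cartilage growth, was highest in the distal glans at 30.8 ± 4.27, and its next levels, in the osteogenic mesenchyme (19.5 ± 6.72), the corpus cavernosum (17.1 ± 2.51) and the epithelium (14.2 ± 3.54), did not differ beyond their spread.

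The Sprouty genes, whose proteins damp receptor tyrosine kinase signalling, shared a leader. All 3 were highest in pericytes, the cells that wrap small vessels, where Spry1 stood at 116 ± 10.0 CPM, Spry2 at 146 ± 39.6 and Spry4 at 142 ± 33.9. After the pericytes they parted, with Spry1 high in the general prepuce (71.5 ± 42.8) and cluster 5 (70.5 ± 6.52), Spry2 in the general prepuce (90.2 ± 28.4), neural cells (81.7 ± 58.2) and smooth muscle-like cells (80.8 ± 1.21), and Spry4 in cluster 9 (41.6 ± 0.21) and endothelium (35.1 ± 26.0). The wide SDs of the general prepuce came from a higher level in DTA- replicate 2 than in replicate 1. Spry1 was lowest in the osteogenic mesenchyme (7.495 ± 0.14) and the corpus cavernosum (7.51 ± 1.33).

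A share of cells with a UMI was read against macrophages, which should lack most of these genes, although free RNA, doublets and low expression were not told apart there. There was a Fgfr1 UMI in 8.33% and 9.52% of DTA- and 3.28% and 3.92% of DTA+ macrophages against 70.4% and 66.1% of DTA- distal glans cells. Macrophages had a Fgf10 UMI in 0%, 1.59%, 3.28% and 0% of cells in DTA- 1, DTA- 2, DTA+ 1 and DTA+ 2. The red blood cell cluster was no such background, since 47.6% and 51.5% of its DTA- cells held a Fgfr1 UMI. Its globin-rich droplets thus carried transcripts at levels like those of mesenchyme (Fgfr1 at 178 and 213 CPM), so it is named by its markers and does not stand for pure red blood cells.

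Across the 15 named populations of the DTA- samples, the genes whose levels were most like those of a ligand or receptor were sought among 10228 genes that reached 20 CPM in at least 1 population, by Pearson's r of log2(CPM + 10). For Fgf10 these were Eln (r = 0.94), Loxl1 (0.94) and AW551984 (0.93), the first 2 of which encode elastin and an enzyme that crosslinks it. For Fgfr1 they included Pdgfra (0.90), a receptor of fibroblasts, for Fgf9 Kcna4 (0.93) and for Fgf7 Nos1ap (0.88). Spry2 was closest to Hoxc6 (0.94), and Spry1 had Spry4 among its 3 nearest genes (0.83). The 15 points share 2 libraries, and r is a description across populations with no test. The unnamed clusters were left out, among them clusters 13, 6, 17 and 5, where Fgf10 was highest.

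Whether ablation of the Nr5a1 lineage changed these genes in the cells that remained was then tested. UMIs were summed per sample and population and compared with edgeR's quasi-likelihood test, and every adjusted p below is from that test with Benjamini-Hochberg adjustment over all genes tested in the population. A gene was called at an adjusted p under 0.05. Where groups are said not to overlap, this describes 2 samples against 2. Such separation is frequent without any effect, and its share over all genes was not counted. In the 13 named populations with enough cells, 72 of 130 gene and population pairs had enough counts to be tested, and 4 were called, all higher in DTA+. They were Fgf10 in the distal glans, the corpus cavernosum and the osteogenic mesenchyme and Spry2 in the distal glans. The median log2 fold change of the tested members ranged from -1.90 to 0.36 over the named populations, with the lowest from macrophages, where only Fgfr1 was tested, against -0.02 to 0.02 for all genes.

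These counts stand against the share of all tested genes that was called. Since the list was chosen with earlier results of these data known, the comparison is a description only. That share was 4.01% in the distal glans (2 of 9 members called), 9.4% in the corpus cavernosum (1 of 10), 2.43% in the osteogenic mesenchyme (1 of 9) and 3.67% in the periurethra (0 of 10). It was 0.553% in the general prepuce (0 of 7 members), 0.752% in proliferative cells (0 of 8) and 0.637% in the red blood cell cluster (0 of 6). With 3 members or fewer tested and 0 called, it was 0.0177% in endothelium, 0.162% in pericytes, 0.105% in neural cells and 0% in epithelium, macrophages and mast cells, where 224, 171 and 153 genes had an unadjusted p under 0.05 and DESeq2 called 0, 0 and 5. Among the unnamed clusters, 7.87% of genes were called in cluster 5 (3 of 8 members), 12.6% in cluster 6 (0 of 8), 1.83% in cluster 0 (0 of 9), 0.251% in cluster 9 (0 of 9) and 0.878% in cluster 17 (0 of 8). At an unadjusted p under 0.05, the members without a call were 3 in the periurethra (Fgf10, Fgfr2 and Fgfr3), 3 in cluster 17 (Fgf7, Fgf10 and Fgfr2), 2 each in the corpus cavernosum (Spry2 and Spry4), the distal glans (Spry1 and Spry4), the osteogenic mesenchyme (Spry1 and Spry4) and cluster 6 (Fgfr2 and Spry1) and 1 each in cluster 9 (Spry2), the general prepuce (Spry4), proliferative cells and macrophages (both Fgfr1). Many genes passed this cut, 1810 of 11050 in the periurethra, 660 of 8201 in cluster 17 and 2605 of 11017 in the corpus cavernosum. It was passed by 2287 of 11627 in the distal glans, 1546 of 10226 in the osteogenic mesenchyme and 2615 of 9822 in cluster 6. The counts were 920 of 8772 in cluster 9, 694 of 10496 in the general prepuce, 1062 of 10767 in proliferative cells and 171 of 4053 in macrophages.

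**Figure D2:**
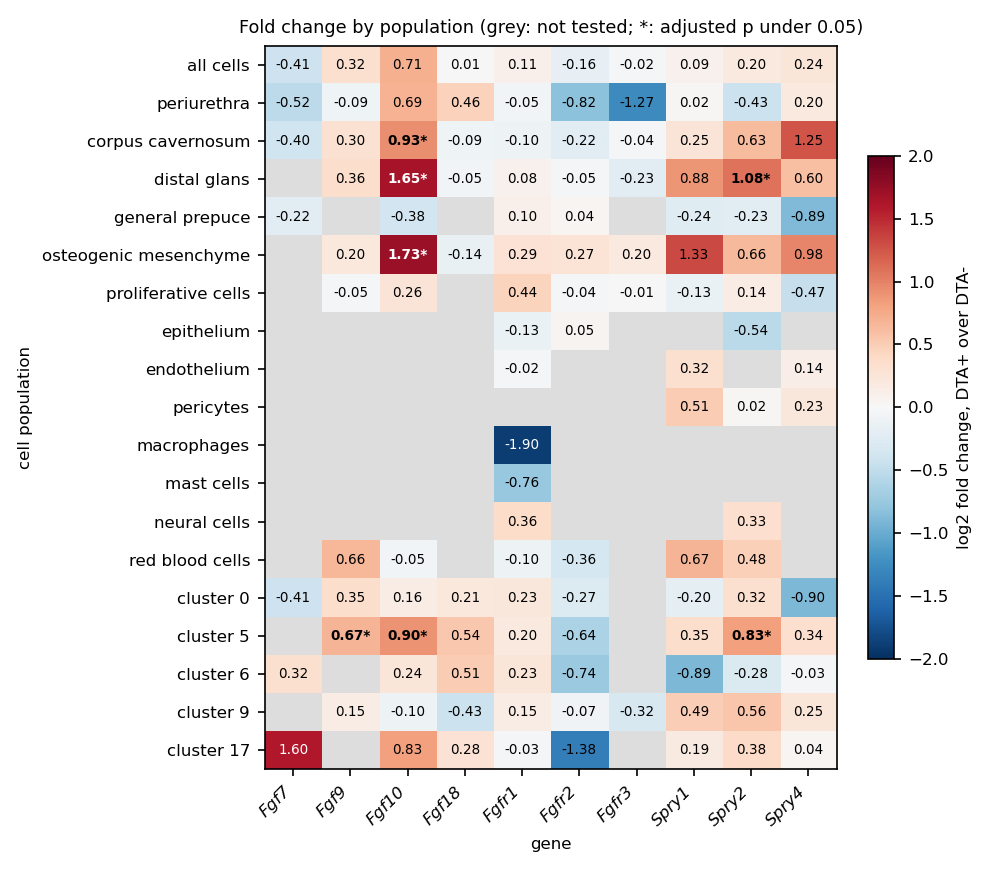
Log2 fold change, DTA+ over DTA-, of each gene (columns) in each population (rows), with grey cells not tested and an asterisk at an adjusted p under 0.05 (edgeR). Stars stand only in the Fgf10, Fgf9 and Spry2 columns, and the 3 starred named populations for Fgf10 reach 0.93 to 1.73.

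Fgf10 lies at chr13:118669791-118792115 on the plus strand (GRCm38). In the distal glans it measured 8.81 and 9.50 CPM in DTA- 1 and 2 and 40.9 and 21.0 in DTA+ 1 and 2. Both DTA+ samples lay above both DTA- samples, DTA+ 1 well above DTA+ 2, and the log2 fold change was 1.65 ± 0.32 (SE; 3.14-fold, adjusted p = 0.0171). In the osteogenic mesenchyme the values were 6.07 and 5.92 against 19.6 and 20.4 CPM, close within each genotype and without overlap, a log2 fold change of 1.73 ± 0.35 (3.31-fold, adjusted p = 0.00987). In the corpus cavernosum, a population named from cartilage-type markers such as Sox9 and Col2a1, they were 13.2 and 18.4 against 30.2 and 34.9 CPM. The groups again did not overlap, at 0.93 ± 0.25 (1.90-fold, adjusted p = 0.0202). The share of cells with a Fgf10 UMI moved the same way, although over the whole organ the kept DTA+ cells held fewer UMIs at the median. It went from 3.10% and 2.90% to 10.3% and 5.73% in the distal glans and from 2.58% and 1.95% to 6.21% and 6.59% in the osteogenic mesenchyme. With every cell thinned to 1000 UMIs those shares were 0.531% and 1.09% against 4.18% and 1.74%, and 0.429% and 1.22% against 2.07% and 1.65%.

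These calls rested on few molecules, and single samples decided some of them. The distal glans gave 39 and 25 Fgf10 UMIs in DTA- and 113 and 116 in DTA+, and the osteogenic mesenchyme 12 and 8 against 29 and 65. The distal glans call was lost without DTA- replicate 1 or 2, after thinning and in its cluster 4 alone. The osteogenic one was lost in its cluster 16 alone, without DTA+ replicate 2, by DESeq2 and at the lower clustering resolution of 0.4. After thinning, Fgf10 had too few counts in the osteogenic mesenchyme to be tested. The corpus cavernosum call was lost without DTA- replicate 1 or either DTA+ replicate, after thinning, without the upper UMI limit and by DESeq2. Over all alternatives run, lost or kept, the fold change stayed above 0, at 1.05 to 2.12, 0.96 to 2.09 and 0.42 to 1.23 on the log2 scale, respectively. In the distal glans the fits without DTA- replicate 1 or without DTA- replicate 2 called no gene at all. Those losses were thus not particular to Fgf10.

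Of the other tested populations, Fgf10 was called in cluster 5, at 27.6 and 27.1 CPM in DTA- and 54.5 and 48.9 in DTA+ (log2 fold change 0.90 ± 0.22, adjusted p = 0.0163). The unnamed clusters were tested in the main fit only, so calls in them were not checked under the alternatives. In the periurethra, the mesenchyme around the urethral epithelium, the values were 11.1 and 13.04 against 25.8 and 15.5 CPM, without overlap but not past the threshold (0.69 ± 0.30, adjusted p = 0.289). Cluster 17 had 33.1 and 45.7 against 64.9 and 79.1, also without overlap and without a call (0.83 ± 0.27, adjusted p = 0.263). The general prepuce had 13.4 and 20.9 against 13.7 and 14.8 CPM, with overlapping groups (-0.38 ± 0.29, adjusted p = 0.999), and cluster 6 had 50.1 and 51.6 against 60.1 and 63.4 (0.24 ± 0.20, adjusted p = 0.487).

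In the fit of all cells together, the called share was 0.488% and held none of the 10 members. Fgf10 was the one member below an unadjusted p of 0.05, a cut that 2409 of 15977 genes passed. Fgf10 was also 1 of the 547 genes called by DESeq2. It measured 15.7 and 17.2 CPM in DTA- and 26.4 and 30.6 in DTA+, with no overlap (log2 fold change 0.71 ± 0.13, adjusted p = 0.0930). Cluster 13, the richest in Fgf10, held 1.32% and 0.114% of the cells in DTA- and 3.63% and 7.36% in DTA+, and 7.23%, 0.531%, 12.2% and 33.4% of the Fgf10 UMIs of DTA- 1, DTA- 2, DTA+ 1 and DTA+ 2. Outside cluster 13 the organ-wide level was 14.8 and 17.1 against 24.1 and 22.3 CPM.

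**Figure D3:**
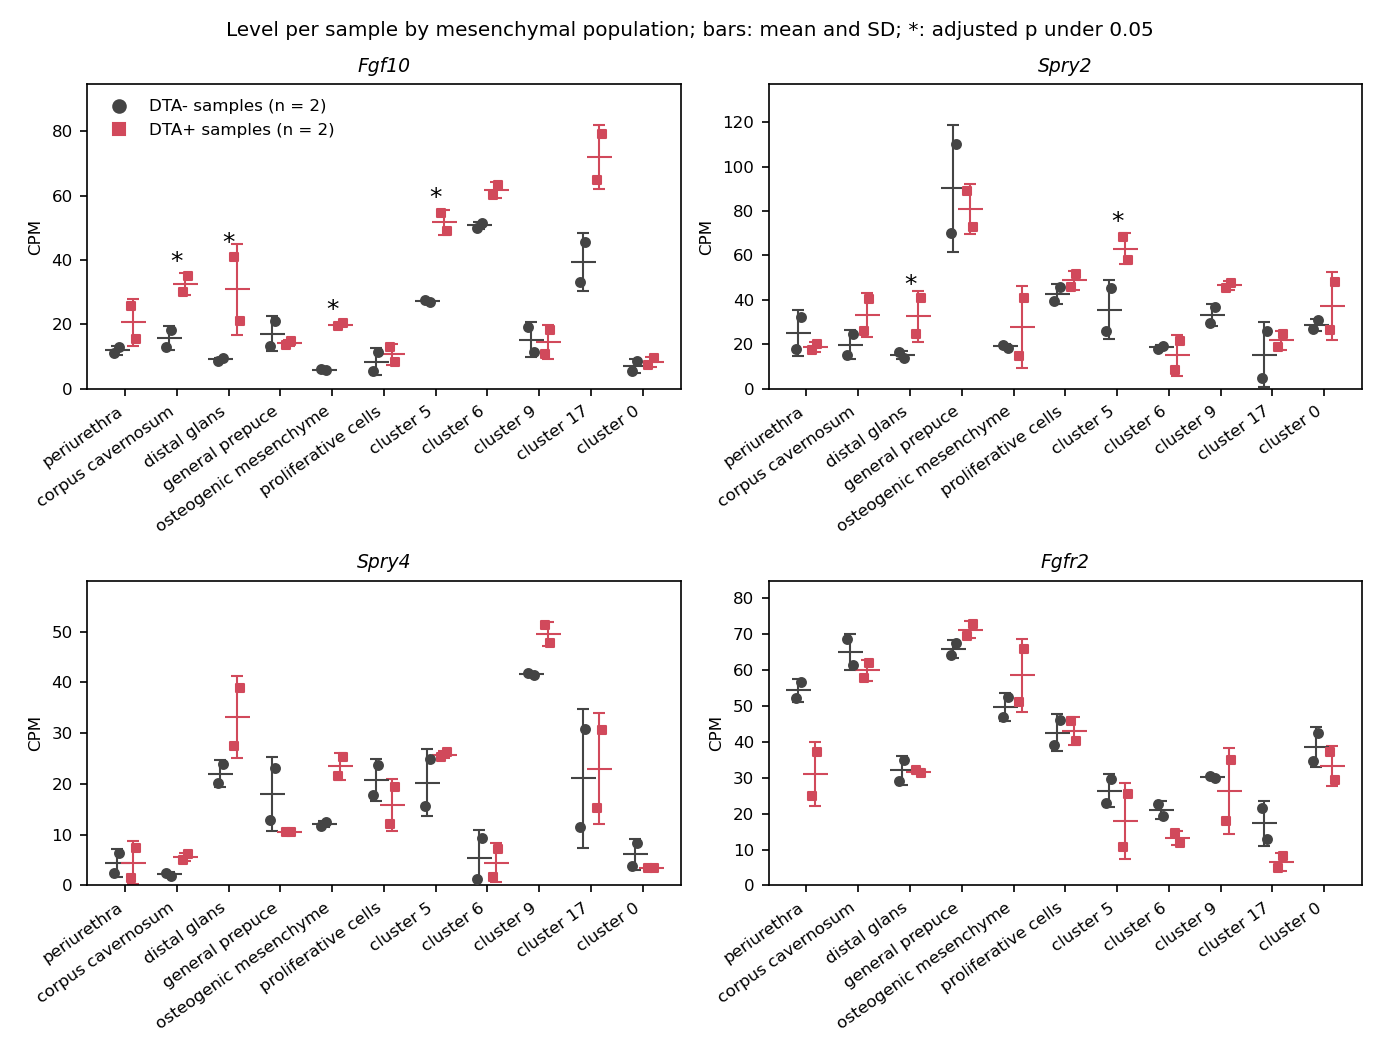
Level in CPM per sample of Fgf10, Spry2, Spry4 and Fgfr2 by mesenchymal population, DTA- and DTA+ points apart (n = 2 each), with bars for mean and SD and an asterisk at an adjusted p under 0.05 (edgeR). The DTA+ points of Fgf10 lie above the DTA- points in the distal glans, corpus cavernosum, osteogenic mesenchyme and periurethra, and the genotypes overlap in the general prepuce.

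The other 3 ligands had no call in a named population. Fgf9 (chr14:58070547-58112720) in cluster 5, where its level was highest, rose from 76.0 and 72.3 CPM to 121 and 119 (log2 fold change 0.67 ± 0.17, adjusted p = 0.0181), without overlap. In the distal glans it measured 75.4 and 64.2 against 77.1 and 107 CPM, where DTA+ 1 lay just above the DTA- samples (0.36 ± 0.18, adjusted p = 0.292). Fgf7 (chr2:126034658-126091185) was lower in DTA+ in all 3 named populations where it was tested, with no call, as in the periurethra with 14.2 and 15.3 against 9.92 and 11.03 CPM (-0.52 ± 0.28, adjusted p = 0.394). In the unnamed cluster 17 its values were higher, 2.55 and 10.9 against 24.8 and 20.1 CPM, also short of the threshold (1.60 ± 0.52, adjusted p = 0.270). Fgf18 (chr11:33117430-33147400) had its lowest adjusted p among the named populations in the periurethra, 13.5 and 13.5 against 22.3 and 16.7 CPM (0.46 ± 0.26, adjusted p = 0.432), and in cluster 9 it measured 60.9 and 64.5 against 57.1 and 39.0 (-0.43 ± 0.25, adjusted p = 0.590).

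None of the receptors was called in a tested population in this fit, but some alternatives called Fgfr2 lower in the periurethra. Fgfr1 (chr8:25513654-25575718) was tested in 12 named populations and had its lowest adjusted p in proliferative cells, at 279 and 321 CPM in DTA- and 441 and 399.5 in DTA+ (0.44 ± 0.14, adjusted p = 0.249). Fgfr2 (chr7:130162451-133123350, the span as annotated) came closest to a call. In the periurethra it measured 52.2 and 56.7 CPM in DTA- and 24.8 and 37.3 in DTA+, with no overlap (-0.82 ± 0.22, adjusted p = 0.0707). It was called there by edgeR's likelihood ratio test (adjusted p = 0.0153), with no filter on low counts (0.00432), with the replicate block (0.00509) and after thinning (0.00505), while DESeq2 gave 0.217. Of the fits without 1 sample, only that without DTA+ replicate 2 called it. It was not called with RLE scaling, with the highest doublet scores left out or without the upper UMI limit. Nor was it called at resolution 0.4 or 1.2, with FGF list genes in the clustering or with clusters formed without genotype genes. Fgfr2 in periurethra clusters 7 and 12 alone had adjusted p values of 0.138 and 0.252. In the epithelium, its main site, it measured 153 and 120.0 against 160.3 and 134 CPM, with groups that overlapped and a difference small beside its error (0.05 ± 0.26, adjusted p = 0.998). Fgfr3 (chr5:33721674-33737068) was also lower in the periurethra without a call, at 5.53 and 5.85 against 1.98 and 2.68 CPM (-1.27 ± 0.48, adjusted p = 0.214), and in the distal glans, where it was highest, it measured 27.8 and 33.8 against 34.4 and 21.1 (-0.23 ± 0.23, adjusted p = 0.634).

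Of the Sprouty genes, Spry2 (chr14:105891947-105896819, minus strand) had the 1 call in a named population. In the distal glans it measured 16.5 and 14.1 CPM in DTA- and 24.6 and 40.7 in DTA+, without overlap and with DTA+ 2 the highest (log2 fold change 1.08 ± 0.25, 2.11-fold, adjusted p = 0.0354). That call was lost by DESeq2, after thinning, at resolution 0.4, in cluster 1 of the distal glans alone and without DTA- replicate 1, DTA- replicate 2 or DTA+ replicate 2. The fits of the distal glans without a DTA- replicate called no gene at all. The log2 fold change of Spry2 ranged from 0.62 to 1.35 over all alternatives. Cluster 5 had 26.2 and 45.2 against 68.1 and 58.1 CPM (0.83 ± 0.24, adjusted p = 0.0392). In the corpus cavernosum the values were 15.2 and 24.6 against 26.2 and 40.4 (0.63 ± 0.27, adjusted p = 0.147), and in the periurethra they were lower in DTA+ on average, 17.96 and 32.4 against 17.4 and 20.3, with overlap (-0.43 ± 0.29, adjusted p = 0.528).

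Spry1 (chr3:37639947-37644598) and Spry4 (chr18:38586247-38601415) were not called in a named population. Both were higher without overlap in the osteogenic mesenchyme, Spry1 at 7.59 and 7.40 against 14.8 and 21.6 CPM (1.33 ± 0.35, adjusted p = 0.0534) and Spry4 at 11.6 and 12.6 against 21.6 and 25.4 (0.98 ± 0.29, adjusted p = 0.0848). In the distal glans Spry1 overlapped, at 38.4 and 24.3 against 32.9 and 84.2 CPM (0.88 ± 0.34, adjusted p = 0.182). Spry4 there did not, at 20.1 and 23.9 against 27.5 and 38.9 (0.60 ± 0.21, adjusted p = 0.141). In pericytes, where the Sprouty genes were highest, Spry1 measured 109 and 123 against 142 and 211 CPM (0.51 ± 0.30, adjusted p = 0.911), and Spry2 and Spry4 overlapped. The opposite sign appeared in the unnamed cluster 6, where Spry1 measured 18.9 and 29.8 against 7.72 and 17.7 CPM, without overlap (-0.89 ± 0.35, adjusted p = 0.0958).

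Several named populations joined 2 clusters, and these were also tested apart, a choice made after the data were seen. Calls in these single clusters were not checked under the other alternatives. The distal glans divided into cluster 1, with more Fgf10 than cluster 4, and cluster 4, with more Fgf9 and Spry4 than cluster 1. In cluster 1, where 1.3% of genes were called, Fgf10 measured 15.1 and 12.97 CPM in DTA- and 58.6 and 30.7 in DTA+ (1.58 ± 0.33, adjusted p = 0.0359), the 1 member called. In cluster 4, where 9.2% were called, 4 members were higher in DTA+. They were Fgf9 (104.9 and 93.9 against 155 and 186 CPM, 0.73 ± 0.16, adjusted p = 0.00172), Spry2 (21.7 and 15.1 against 34.2 and 55.5, 1.25 ± 0.26, adjusted p = 0.000939), Spry4 (28.7 and 25.7 against 46.9 and 63.0, 0.99 ± 0.22, adjusted p = 0.00263) and Spry1 (47.1 and 23.5 against 41.99 and 106, 1.05 ± 0.26, adjusted p = 0.00683). The groups did not overlap for the first 3 and overlapped for Spry1, whose DTA+ 1 value lay below DTA- 1. Fgf10 was low in cluster 4, at 3.69 and 6.05 against 10.7 and 9.45 CPM (1.05, adjusted p = 0.163).

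The osteogenic mesenchyme divided likewise. In cluster 8, the Runx2 and Sp7 cluster, where 4.47% of genes were called, Fgf10 measured 6.13 and 4.56 against 16.3 and 17.5 CPM (1.61 ± 0.45, adjusted p = 0.0321), Spry1 8.17 and 7.59 against 24.4 and 21.5 (1.499 ± 0.39, adjusted p = 0.0194) and Spry4 14.3 and 13.7 against 35.3 and 36.0 (1.35 ± 0.32, adjusted p = 0.00762), each without overlap. The other cluster of this population, 16, in which Runx2 and Sp7 were not enriched, had no member called against 1.24% of genes. Fgf10 there stood at 1.83 with an adjusted p of 0.0955. In the corpus cavernosum, cluster 2 (8.17% called) had the Fgf10 call, 14.3 and 18.2 against 32.2 and 36.8 CPM (0.97 ± 0.24, adjusted p = 0.0213), and the small cluster 26 (0.104%) had none. No member was called in periurethra clusters 7 (3.87%) and 12 (3.78%) or proliferative clusters 10 (1.07%) and 15 (0.755%).

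**Figure D4:**
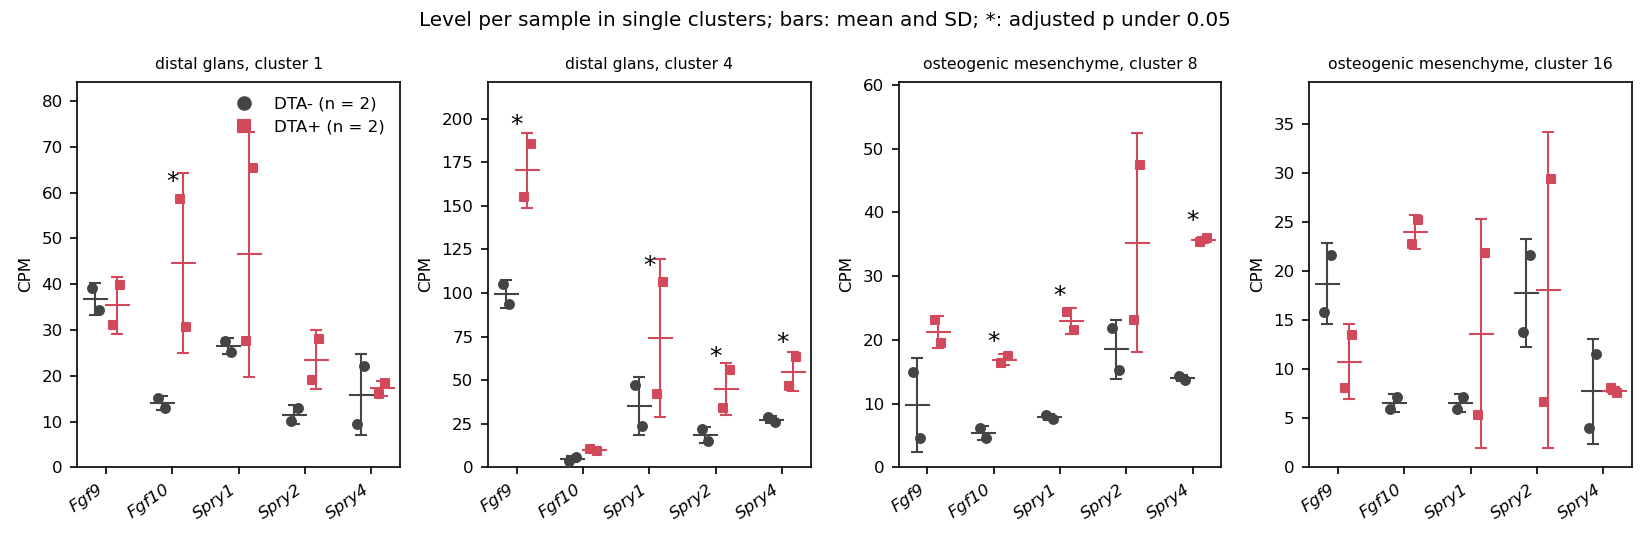
Level in CPM per sample of Fgf9, Fgf10 and the Sprouty genes in single clusters of the distal glans and osteogenic mesenchyme, DTA- and DTA+ points apart (n = 2 each), with bars for mean and SD and an asterisk at an adjusted p under 0.05 (edgeR). In distal glans cluster 4 Fgf9, Spry1, Spry2 and Spry4 are starred, with the 2 genotypes of Spry1 overlapping, and in osteogenic cluster 8 Fgf10, Spry1 and Spry4 are.

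The rest of the pathway was described from lists of 38 other genes, also chosen with earlier results of these data known. They gave 130 tests and 8 calls in the named populations, where 2.40% of the 97808 tests of all genes were called. Transcription factors and adaptors had 4 calls in 30 tests, all higher in DTA+, other ligands 2 in 21, both higher, receptors and co-receptors 2 in 37, 1 in each direction, and other feedback inhibitors 0 in 42. Etv1 and Etv5 encode ETS factors induced by FGF receptor signalling. Etv5 in the corpus cavernosum measured 4.11 and 3.84 CPM in DTA- and 21.5 and 26.8 in DTA+ (2.48 ± 0.33, 5.59-fold, adjusted p = 3.57e-05), with a wide gap between genotypes, and it was called under 18 of 18 alternatives. It missed the threshold in the distal glans (0.77, adjusted p = 0.0664) and the osteogenic mesenchyme (1.77, adjusted p = 0.0749).

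Etv1 was called in 3 named populations. It measured 26.2 and 26.2 against 77.4 and 58.7 CPM in the distal glans (1.31 ± 0.19, adjusted p = 0.00554), 38.6 and 33.4 against 59.8 and 68.0 in the corpus cavernosum (0.72 ± 0.19, adjusted p = 0.0185) and 26.3 and 21.5 against 64.0 and 39.8 in the osteogenic mesenchyme (1.04 ± 0.25, adjusted p = 0.0337). In none of them did the genotypes overlap. The calls were lost under 2 of 19, 4 of 18 and 7 of 19 alternatives, respectively. The 2 losses in the distal glans were the fits without a DTA- replicate, which called no gene at all there. In the unnamed cluster 6 it measured 20.6 and 22.4 against 63.5 and 68.7 CPM (1.58 ± 0.23, adjusted p = 3.7e-05), where no member was called. At resolution 1.2 cells with these leading genes fell into 2 clusters by genotype, 1 led by Stc1 and Dcc with 49, 22, 459 and 458 cells in DTA- 1, DTA- 2, DTA+ 1 and DTA+ 2 and 1 led by Ptgis and Thbd with 426, 383, 5 and 15, so the DTA- and DTA+ values of cluster 6 come from cells that separate at the higher resolution.

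The promoters of Fgf10, Spry2, Etv1 and Etv5 are shown, the first 2 as the members called in a named population and the others as ETS factors called there, with 250 bases before the start and 30 after it, 5′ to 3′ on the strand of the gene (RefSeq, GRCm38.p6). The windows lie at chr13:118714449-118714728 for Fgf10 (plus strand), chr14:105896790-105897069 for Spry2 (minus), chr12:38779832-38780111 for Etv1 (plus) and chr16:22438339-22438618 for Etv5 (minus). Capitals mark GGAAGT, a form of an ETS site, searched on both strands. Shorter and variant forms of the site were not searched. The RefSeq start of Fgf10 lies within the gene span given above, which is from another annotation that begins further upstream.
Fgf10: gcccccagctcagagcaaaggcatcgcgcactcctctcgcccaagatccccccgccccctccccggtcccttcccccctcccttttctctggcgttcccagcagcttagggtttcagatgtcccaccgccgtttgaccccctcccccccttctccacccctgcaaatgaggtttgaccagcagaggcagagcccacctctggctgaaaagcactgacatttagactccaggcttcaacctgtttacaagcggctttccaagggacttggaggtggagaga
Spry2: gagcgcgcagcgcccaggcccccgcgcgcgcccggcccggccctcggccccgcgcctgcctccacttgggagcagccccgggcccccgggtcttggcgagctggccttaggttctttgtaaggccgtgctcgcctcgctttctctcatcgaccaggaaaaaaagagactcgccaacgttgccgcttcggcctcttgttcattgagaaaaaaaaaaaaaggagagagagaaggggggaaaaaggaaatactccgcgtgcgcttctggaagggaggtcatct
Etv1: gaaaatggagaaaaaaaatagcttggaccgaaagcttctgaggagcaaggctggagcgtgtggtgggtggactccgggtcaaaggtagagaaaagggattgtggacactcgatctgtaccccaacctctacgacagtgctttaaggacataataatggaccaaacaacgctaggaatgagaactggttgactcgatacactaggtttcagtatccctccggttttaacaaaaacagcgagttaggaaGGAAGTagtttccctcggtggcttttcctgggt
Etv5: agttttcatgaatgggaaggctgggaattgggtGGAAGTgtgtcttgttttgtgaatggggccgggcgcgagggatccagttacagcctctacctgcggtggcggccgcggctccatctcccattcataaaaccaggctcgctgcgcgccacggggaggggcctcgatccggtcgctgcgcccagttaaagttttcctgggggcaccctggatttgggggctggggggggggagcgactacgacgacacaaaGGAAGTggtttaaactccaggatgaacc
Etv1 held 1 match, beginning at base 248 of the window, and Etv5 held 2, at bases 34 and 253. A further window of each of these 2 genes held none. Of the 10 members 8 were in the table by symbol, and none of their windows held the letters, against 23.8% of all 32851 windows of 300 bases (7809). A match is a description of the letters and not of a bound site.

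Other called genes of the pathway were scattered. In the periurethra, which had no call among the members, Fgf2, a ligand without a classical secretion signal, measured 50.8 and 59.8 CPM in DTA- and 134 and 126 in DTA+ (1.19 ± 0.16, adjusted p = 0.00217), and Flrt2, a transmembrane protein that binds FGF receptors, 127 and 145 against 337 and 206 (0.93 ± 0.21, adjusted p = 0.0367). Both were without overlap, and their calls were lost under 3 and 4 of 19 alternatives. Fgf13, an intracellular FGF homologue, rose in the osteogenic mesenchyme from 4.56 and 7.40 to 20.9 and 16.3 CPM (1.64 ± 0.38, adjusted p = 0.0246), a call lost under 8 of 18 alternatives. Fgfrl1, a receptor without a kinase domain, was the 1 gene that fell, in the corpus cavernosum, from 67.8 and 91.0 to 48.8 and 60.3 CPM (-0.65 ± 0.19, adjusted p = 0.0357), and it lost its call under 11 of 19 alternatives. Among the feedback inhibitors, Spred1 and Spred2 in the corpus cavernosum stood at 0.51 (adjusted p = 0.0750) and 0.67 (adjusted p = 0.0599).

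**Figure D5:**
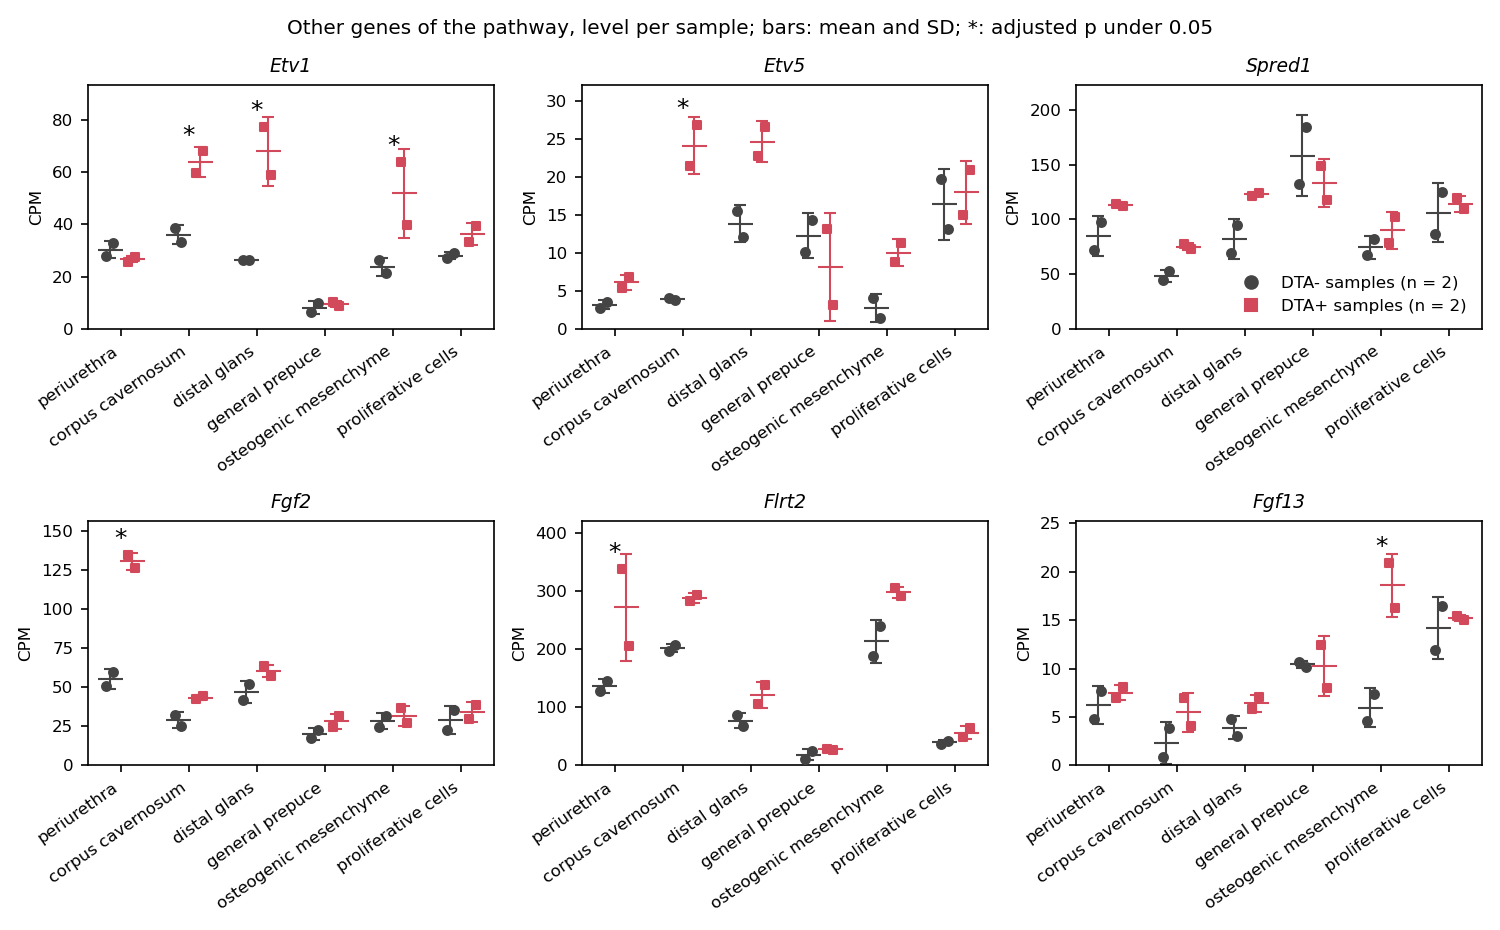
Level in CPM per sample of Etv1, Etv5, Spred1, Fgf2, Flrt2 and Fgf13 by population, DTA- and DTA+ points apart (n = 2 each), with bars for mean and SD and an asterisk at an adjusted p under 0.05 (edgeR). The DTA+ points of Etv1 and Etv5 lie above the DTA- points in the corpus cavernosum, 21.5 and 26.8 against 4.11 and 3.84 for Etv5, and those of Fgf2 above them in the periurethra.

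Sprouty and Etv genes respond to ERK, as do several genes induced when tissue is dissociated, so 12 such dissociation genes are given beside them. In the distal glans 11 of 12 were higher in DTA+ and 0 of 12 were called. The general prepuce had 3 of 12 higher, the periurethra 2 of 12 and the epithelium 12 of 12, with 0 called in each. The median log2 fold change of these genes was 0.35 in the distal glans, -0.22 in the general prepuce and -0.24 in the periurethra. The osteogenic mesenchyme had 9 of 12 higher and the corpus cavernosum 4 of 12. In the osteogenic mesenchyme Junb (0.64 ± 0.15, adjusted p = 0.0249) and Dusp1 (1.00 ± 0.18, adjusted p = 0.00521) rose, and in the corpus cavernosum Jun (-0.75 ± 0.21, adjusted p = 0.0244) and Hspa1a (-1.64 ± 0.36, adjusted p = 0.00508) fell. In cluster 5 Fos, Junb and Dusp1 rose and Hspa1a and Hspa1b fell, and in cluster 6 Fos and Dusp1 rose while Junb, Atf3 and Hspa1a fell. The part of dissociation in the members' differences was not tested.

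Whether populations differed in their response was tested by the genotype by population term, for the 6 pairs among the periurethra, corpus cavernosum, distal glans and general prepuce. With 10 members tested in each pair, the term was called for 5 member and pair combinations, 4 of them with the general prepuce. For Fgf10 the response of the general prepuce was lower by 2.10 on the log2 scale than that of the distal glans (adjusted p = 0.00922; 1.98% of genes called for this pair) and lower by 1.27 than that of the corpus cavernosum (adjusted p = 0.0134; 4.92% called). Spry4, with 12.8 and 23.2 CPM in DTA- and 10.5 and 10.5 in DTA+ in the general prepuce, gave differences in the same direction, of -1.34 from the distal glans (adjusted p = 0.0488) and -2.10 from the corpus cavernosum (adjusted p = 0.0252). Spry2 responded 1.12 higher in the corpus cavernosum than in the periurethra (adjusted p = 0.0329; 3.24% of genes called).

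No member was called between the periurethra and the distal glans (1.75% of genes), the periurethra and the general prepuce (0.978%) or the corpus cavernosum and the distal glans (1.58%). All 5 differences were lost by DESeq2, without DTA- replicate 2 and after thinning. The 4 with the general prepuce were also lost when clusters were formed without genes that differed by genotype, where they kept their sign. Over all alternatives the Fgf10 difference ranged from -1.47 to -0.023 for the corpus cavernosum and from -2.53 to -0.49 for the distal glans. The Spry4 difference ranged from -2.61 to -0.81 and from -1.67 to -0.88, respectively. Etv1 and Etv5 showed differences as well, with Etv1 responding 1.52 higher in the distal glans than in the periurethra (adjusted p = 0.00909) and Etv5 lower by 1.72 in the distal glans than in the corpus cavernosum (adjusted p = 0.0123).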

How the data were processed

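The authors dissociated male mouse genitalia, made 10x Genomics 3′ libraries and aligned their reads to mm10, extended by reporter sequences. They deposited raw UMI counts for 32287 features in every called cell, not normalized, with Cell Ranger 4.0.0 named in the headers. The range of UMIs kept per cell was above 1000 and below 7500, and cells over 25% mitochondrial, 25% Hba or 50% Hbb transcripts were dropped. Clustering (Seurat 5.3.0, R 4.3.3) used 2000 variable genes without the FGF lists, 30 components and resolution 0.8. A class name required 3 enriched markers and no other class ahead among the 10 leading genes of the cluster. Doublets were kept, since Scrublet (scanpy 1.11.5) called only 1, 0, 1 and 0 cells.

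Populations with 20 or more cells in every sample were summed, and edgeR 4.0.16 compared genotypes by its quasi-likelihood test after TMM scaling and filterByExpr, with no covariate. The difference in response was tested with the sample as a block. DESeq2 1.42.0, edgeR's likelihood ratio test and other settings were alternatives. Fits were tested on simulated data. Named genes were the 10 members, other list genes called in a named population or highest in their list, and the 3 genes most like each member, of which some are not reported here. Members and lists were chosen with earlier results of these data known. Promoters are from RefSeq (GRCm38.p6), gene positions from the GRCm38 annotation. Python 3.11.15, numpy 2.4.6, pandas 2.3.3, scipy 1.17.1 and matplotlib 3.10.9 were used.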

Additional observations from a re-analysis of the deposited data

Results flagged for a closer look

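Members of the FGF group responded to ablation differently between populations in 5 combinations, by edgeR's quasi-likelihood test of the genotype by population term (Benjamini-Hochberg). For Fgf10 the log2 fold change of the general prepuce minus that of the corpus cavernosum was -1.27 (from -0.38 and 0.93 in the separate fits), and minus that of the distal glans it was -2.10 (distal glans 1.65). For Spry4 the same subtractions gave -2.10 from the corpus cavernosum and -1.34 from the distal glans, where the separate fits gave -0.89 in the general prepuce, 1.25 in the corpus cavernosum and 0.60 in the distal glans, none of them called. For Spry2 the corpus cavernosum minus the periurethra was 1.12 (from 0.63 and -0.43). The adjusted p of the Fgf10 difference between the general prepuce and the distal glans ranged from 2.35e-07 to 0.864 over its 14 alternatives, and its value from -2.53 to -0.49. The value of the Fgf10 difference between the general prepuce and the corpus cavernosum ranged from -1.47 to -0.023 over its 14 alternatives. The libraries, at 2 a group, were too few for a search for single samples far from the others.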

How the results depend on the processing

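The 4 calls of members in the named populations became 1 by DESeq2, 7 by the likelihood ratio test, 7 with no filter on low counts, 1 after thinning to 1000 UMIs, 9 when merged clusters were tested alone (chosen after seeing the data) and 1 to 6 without 1 sample. Over all cells the count of 0 became 1 by DESeq2, the likelihood ratio test and with no filter, and stayed at 0 without any 1 sample. The 78 genes called over all cells became 547, 658 and 659 under those 3, 141 after thinning, 21 without the upper UMI limit and 90 to 264 without 1 sample. The 2344 calls in the named populations became 1089 by DESeq2, 3630 by the likelihood ratio test, 3861 with no filter, 746 after thinning and 1542 to 3851 without 1 sample. The 8 calls of other pathway genes became 4 by DESeq2, 13 by the likelihood ratio test, 4 after thinning, 5 at resolution 0.4 and 3 to 11 without 1 sample. The 5 differences in response became 0, 9 and 10 by DESeq2, the likelihood ratio test and with no filter, 2 after thinning, 1 at resolution 0.4 (where no pair with the general prepuce could be fitted, so 4 of the 5 were not run), 2 with clusters formed without genotype genes and 0 to 10 without 1 sample. Where a sample was left out, the lone sample was assumed to vary like the others. The 1 member call after thinning was Fgfr2, lower in DTA+ in the periurethra, so none of the 4 calls of members was kept there. The 2 differences in response called after thinning were not among the 5 either.

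Same-numbered samples deviated in opposite directions (correlation -0.234 over 15977 genes), so the replicate numbers were not taken as pairs. With the replicate block the members had 7 calls in the named populations and 335 genes were called over all cells. With the crossed pairing, added after seeing the data, the counts were 10 and 1668, with 1 member over all cells, 5293 genes in the named populations and 17 other pathway calls. The replicate block did not apply to the difference in response, where the sample is already a block. Among single member values, 1170 kept their direction and side of the threshold, 136 changed sign with no call in either, 38 gained and 21 lost a call, and none reversed a call. The causes were not tested. Many values rest on few UMIs, such as 12 and 8 for Fgf10 in the DTA- osteogenic mesenchyme, which limits their precision.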

Other observations

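In 4 populations too uneven between genotypes to be tested in the main clustering, the members had these levels. In the smooth muscle-like cells, few of which were found in DTA+, Fgf7 measured 79.9 and 107 CPM in DTA- and 123 and 74.0 in DTA+. Fgf10 there measured 18.3 and 16.3 against 72.3 and 49.3, the latter from 12 DTA+ UMIs. In the subdermal prepuce-like cells Fgf10 measured 20.7 and 21.5 against 43.1 and 10.3 CPM, from 9 DTA+ UMIs. In cluster 13, mostly of DTA+ cells, Fgf10 measured 83.4 and 89.1 against 82.2 and 116 CPM, from 38 and 441 UMIs, so the values overlapped between genotypes while the number of cells did not. In cluster 14 Fgf10 measured 14.5 and 6.66 CPM in DTA+ and Fgfr1 274 and 285, with only 6 and 8 cells in DTA-, none of which held a Fgf10 UMI. In smooth muscle-like cells Spry2 measured 79.9 and 81.7 against 72.3 and 98.7 CPM, while Spry4 gave 1 UMI in DTA- and 0 in DTA+. Under some alternatives clusters with these names could be tested. A smooth muscle-like cluster of 2640 cells at resolution 0.4 had 1 of 9 members called, lower in DTA+ (140 of 11086 genes). Without the upper UMI limit it was 1 of 8, higher (445 of 10896 genes). The subdermal prepuce-like cells at resolution 1.2 had 0 of 8 (36 of 10323 genes).

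Other genes among the nearest to a member across the 15 named populations of the DTA- samples were, with Pearson's r as a description, Snap91 (0.91) and Rimklb (0.90) for Fgf9, Sdr39u1 (0.90), Efna3 (0.90) and Mapk13 (0.87) for Fgfr2, Asns (0.88), Lmo7 (0.88) and Cdca7 (0.87) for Fgfr3, Thy1 (0.87) for Spry1, and Gm13889 (0.86) and Unc5b (0.85) for Spry4. Fgf18 stayed under 20 CPM in all named populations, and its nearest genes, Gm26771 (0.93), Tango2 (0.93) and Dio3os (0.92), rest on low levels.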
